A study of Drosophila melanogaster with 22 samples.

Results

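The genes described here are 10 neuropeptide precursor genes of *Drosophila melanogaster*, chosen by name among the 17101 genes in each gene count table. They are Nplp1, Nplp2, Nplp3, NPF, sNPF, Tk, Mip, AstA, Crz and FMRFa, and the rule that lists them uses no measured value. The heads came from virgin females aged 1 day, 100 heads to a replicate. The mutant flies were homozygous for RluA-2 del-FRT, a deletion that takes out the whole RluA-2 locus, which encodes a putative pseudouridine synthase. Their controls were isogenic w1118 flies, the same genetic background without the deletion. Poly(A) RNA of each replicate was divided between CMC, a carbodiimide that stays bound to pseudouridine and stops reverse transcriptase, and a mock treatment. In Exp 2 there were 4 RluA-2 replicates and 4 w1118 replicates, in Exp 1 3 replicates of w1118 alone, which gave 11 pairs and 22 libraries of 75-base paired reads. The sources used here do not say whether the replicates were separate crosses or cultures, so the p-values measure the spread between these head pools.

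Neuropeptides are made as long precursors that pass through the secretory pathway, are cut at basic residues and are often amidated before they are packed into dense core vesicles. One precursor usually yields several related peptides, and most of these act on G protein-coupled receptors. In the fly brain many neuropeptides come from small and defined sets of neurons. They shape feeding, sleep, arousal, mating and the response to stress and injury. The authors name Nplp2 and Nplp3 only as potential neuropeptide genes. In a head pool, fewer cells of a type and less RNA per cell cannot be told apart.

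Libraries held between 12035142 and 30701799 counts in genes. All 10 precursors had counts in all 22 libraries, and together they took between 0.597% and 0.906% of a library. As a check of the labels, reads that ended within the RluA-2 gene numbered 12 to 40 in the RluA-2 CMC libraries and 99 to 159 in the w1118 CMC libraries of Exp 2. That was 1.58 ± 0.65 CPM against 7.65 ± 1.27 CPM (SD, n = 4 each), a log2 fold change of -2.25 ± 0.22 (SE, adjusted p = 2.57e-06). Some ends thus remained in the mutant although the whole locus is deleted, and their source was not tested. Defining neuron genes were present in the heads. Together nSyb, brp, Syt1 and para had 2792 to 3062 termination CPM in RluA-2 and 2631 to 3104 in w1118 of Exp 2. The midgut genes betaTry, alphaTry, thetaTry and Jon25Bi and the ovary genes Vm26Aa and Cp36 were at or near 0, with at most 0.219 CPM of terminations in a library of Exp 2. Mal-A1, the fifth midgut gene, was not: it had 6.57 to 9.10 termination CPM in RluA-2 and 6.11 to 7.05 in w1118 of Exp 2.

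The count tables give 1 row a gene and no exon length, so levels are compared between libraries and not between genes. CPM (a count scaled to the total of its library) is given for each library in the order of the replicate numbers, which carry no order of their own.

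Which of these precursors differed between RluA-2 and w1118 heads was asked first in the mock libraries of Exp 2, where no CMC step had touched the RNA. Nplp3 and Crz were lower in RluA-2, and Tk and Nplp2 were higher. These 4 of 10 genes passed an adjusted p of 0.05, against 23.7% of the 10161 genes tested (11.1% higher and 12.6% lower). The median log2 fold change was 0.05 over the 10 precursors and 0.00 over all genes tested.

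Nplp3 (FBgn0042201, chr3L:16318024-16318690, plus strand, Release 6) encodes a small neuropeptide-like precursor. It had 2358, 2143, 1940 and 2276 CPM in RluA-2 mock libraries, against 3565, 4160, 4340 and 4091 CPM in w1118 mock libraries of Exp 2. The groups did not overlap, and the highest RluA-2 library stood well below the lowest w1118 library. The means were 2179 ± 183 CPM in RluA-2 and 4039 ± 333 CPM in w1118 (SD, n = 4 each). The log2 fold change was -0.85 ± 0.07 (SE, 95% interval -1.01 to -0.69, adjusted p = 4.97e-06), and it ranked 204 of the 10161 genes by p. The w1118 mock libraries of Exp 1, at 3569, 4251 and 3498 CPM, were also above every RluA-2 library.

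Crz (FBgn0013767, chr3R:14314854-14315716, plus strand) encodes corazonin, a peptide of the gonadotropin-releasing hormone family that is tied to the stress response. It had 15.7, 16.6, 13.5 and 13.9 CPM in RluA-2 mock libraries and 18.3, 18.9, 19.9 and 20.8 CPM in w1118 mock libraries. The groups did not overlap. The log2 fold change was -0.35 ± 0.08 (SE, adjusted p = 0.00595), from 202 to 345 reads a library in RluA-2 and 240 to 562 in w1118. The w1118 mock libraries of Exp 1 had 18.1, 14.7 and 19.3 CPM, and 1 of them lay within the RluA-2 range.

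Tk (FBgn0037976, chr3R:11994175-12005473, plus strand) encodes the tachykinins, which act in aggression, in nociceptive sensitization and in the gut. It had 49.3, 48.5, 50.1 and 52.6 CPM in RluA-2 mock libraries, against 45.4, 43.5, 42.8 and 46.7 CPM in w1118 mock libraries. Again the groups did not overlap, although the gap between them was small. The log2 fold change was 0.21 ± 0.05 (SE, adjusted p = 0.00675). In Exp 1 the w1118 mock libraries, at 44.6, 38.9 and 40.7 CPM, were also below every RluA-2 library. Nplp3, Crz and Tk were the 3 precursors whose groups did not overlap, where 27.3% of all genes tested had groups that did not overlap.

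Nplp2 (FBgn0040813, chr3L:13356376-13357223, plus strand), another small neuropeptide-like precursor, had 3969, 4721, 3714 and 4861 CPM in RluA-2 mock libraries and 3670, 3823, 3245 and 3802 CPM in w1118 mock libraries. The ranges overlapped, since 1 RluA-2 library lay within the w1118 range, and RluA-2 replicates 2 and 4 were the highest. The w1118 mock libraries of Exp 1 had 3841, 2924 and 3135 CPM, 1 of them within the RluA-2 range. The log2 fold change was 0.29 ± 0.09 (SE, adjusted p = 0.0381). This call was lost when any one of 6 libraries was left out: w1118 replicates 1, 2, 3 and 4 (adjusted p = 0.0735, 0.0547, 0.0965 and 0.0563) and RluA-2 replicates 2 and 4 (adjusted p = 0.117 and 0.0987).

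The other 6 precursors did not pass the test. FMRFa (FBgn0000715), the precursor of the FMRFamide-like peptides that act on muscle and neurons, had 7.45, 7.15, 7.51 and 5.45 CPM in RluA-2 and 9.05, 7.27, 9.39 and 10.5 CPM in w1118. Its log2 fold change was -0.35 ± 0.13 (SE, adjusted p = 0.0665), the same size as that of Crz with a wider error. Without w1118 replicate 2, the lowest w1118 library, the adjusted p was 0.0229. Nplp1 (FBgn0035092), a neuropeptide-like precursor that yields several peptides, had 96.1 ± 2.02 CPM in RluA-2 and 93.4 ± 2.51 CPM in w1118 (SD, n = 4 each; adjusted p = 0.14).

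NPF (FBgn0027109), the fly relative of vertebrate neuropeptide Y, had 12.8, 13.8, 11.6 and 16.7 CPM in RluA-2 and 14.1, 12.7, 12.9 and 15.3 CPM in w1118, and the 95% interval of its log2 fold change ran from -0.21 to 0.27. For sNPF (FBgn0032840), which encodes short neuropeptide F, a feeding signal, that interval was -0.07 to 0.12. For Mip (FBgn0036713), whose myoinhibiting peptides bind the sex peptide receptor SPR, it was -0.06 to 0.20. For AstA (FBgn0015591), which encodes the allatostatin A peptides of satiety and sleep, it was -0.04 to 0.22. For these 4 genes the intervals in mock libraries lay within 0.3 log2 units of 0, which does not show that the genotypes were alike. In CMC libraries the interval of NPF ran from -0.05 to 0.33.

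**Figure D1:**
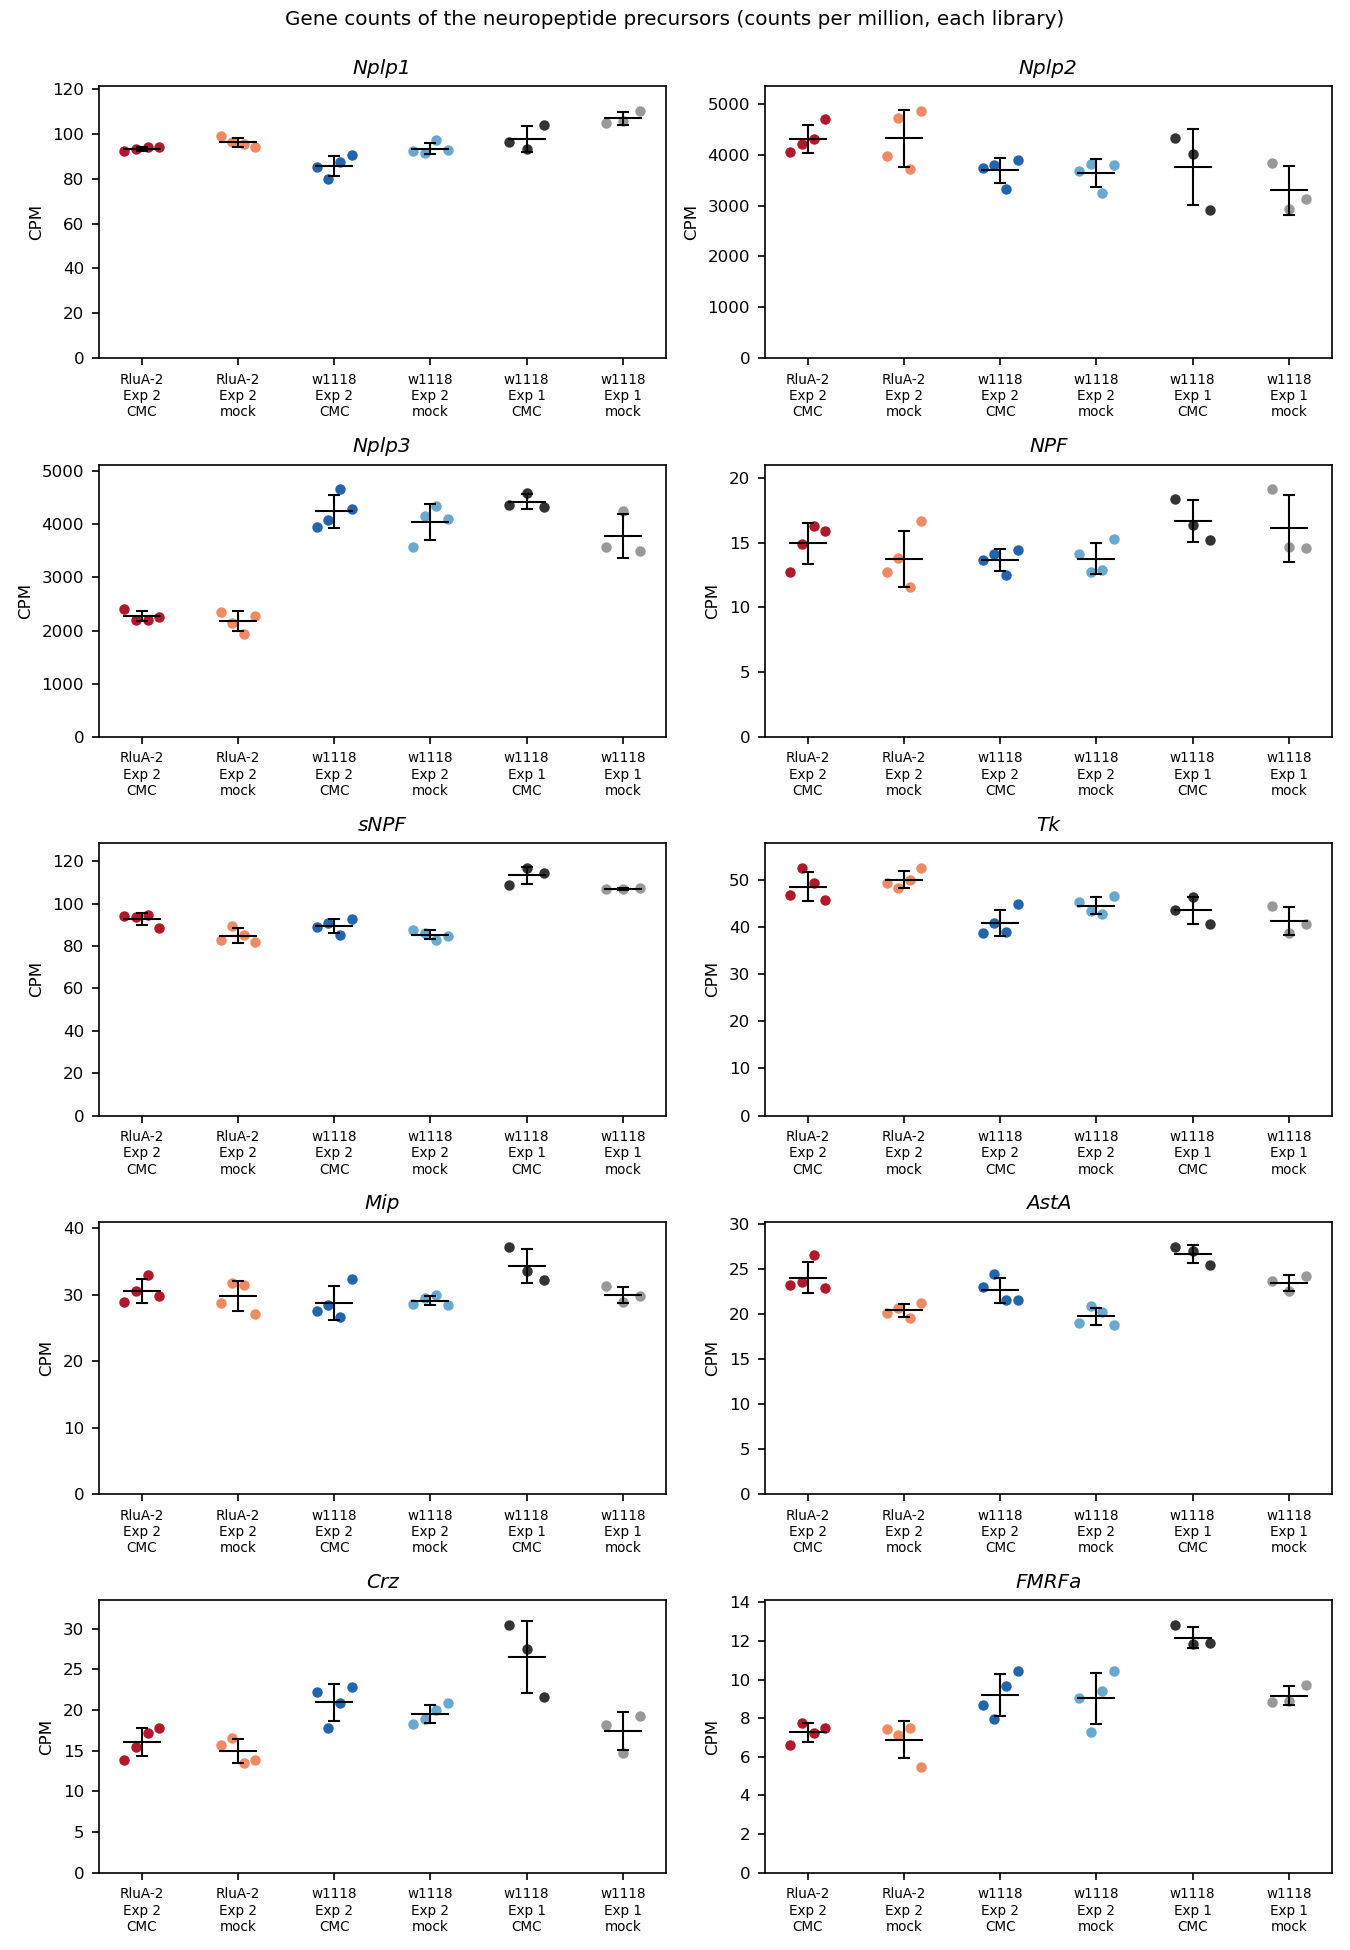
CPM (y axis, from 0, 1 scale a gene) of the 10 neuropeptide precursor genes in each of the 22 libraries, by genotype, experiment and treatment (x axis). Points are libraries, and black bars give the mean and SD; the 4 RluA-2 mock libraries of Nplp3 sit between 1940 and 2358 CPM, below all w1118 libraries.

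The CMC libraries of the same RNA gave a further set, prepared from the same head pools and so not independent of the mock set. Here 5 of 10 precursors passed the test, against 21.1% of 10050 genes (8.80% higher and 12.3% lower). Nplp3 (-0.88 ± 0.07), Crz (-0.37 ± 0.10) and FMRFa (-0.32 ± 0.10) were lower in RluA-2 on the log2 scale with their SE, and Tk (0.27 ± 0.06) and Nplp2 (0.24 ± 0.07) were higher. The adjusted p-values were 9.66e-07 for Nplp3, 0.0143 for Crz, 0.0386 for FMRFa, 0.00843 for Tk and 0.0330 for Nplp2.

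Nplp3 had 2414, 2201, 2206 and 2262 CPM in RluA-2 CMC libraries and 3939, 4083, 4656 and 4281 CPM in w1118 CMC libraries of Exp 2. FMRFa had 6.61, 7.75, 7.24 and 7.51 CPM in RluA-2 and 8.69, 7.95, 9.68 and 10.4 CPM in w1118, so its groups were apart by only a narrow margin. With Nplp1, the 5 called genes made 6 precursors whose groups did not overlap, where 23.6% of all genes tested did so. For Crz the margin was narrower still: its highest RluA-2 CMC library had 17.76 CPM and its lowest w1118 CMC library of Exp 2 had 17.80 CPM. Nplp1 had 92.2, 93.1, 94.1 and 93.9 CPM in RluA-2 against 85.0, 79.9, 87.2 and 90.4 CPM in w1118, with a log2 fold change of 0.14 ± 0.05 (SE, adjusted p = 0.0608).

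The call of FMRFa was lost with DESeq2 (adjusted p = 0.0935), without the filter on low counts (0.0527) and without w1118 replicate 3 or 4 or any one of the RluA-2 replicates (0.0687 to 0.133). Crz lost its call without w1118 replicate 4 (0.0531) or RluA-2 replicate 2 (0.0536), and Nplp2 without w1118 replicate 1 or 3 or RluA-2 replicate 4 (0.0693, 0.118 and 0.0849). Nplp3 and Tk kept theirs under every alternative run on the gene counts in both sets.

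**Figure D2:**
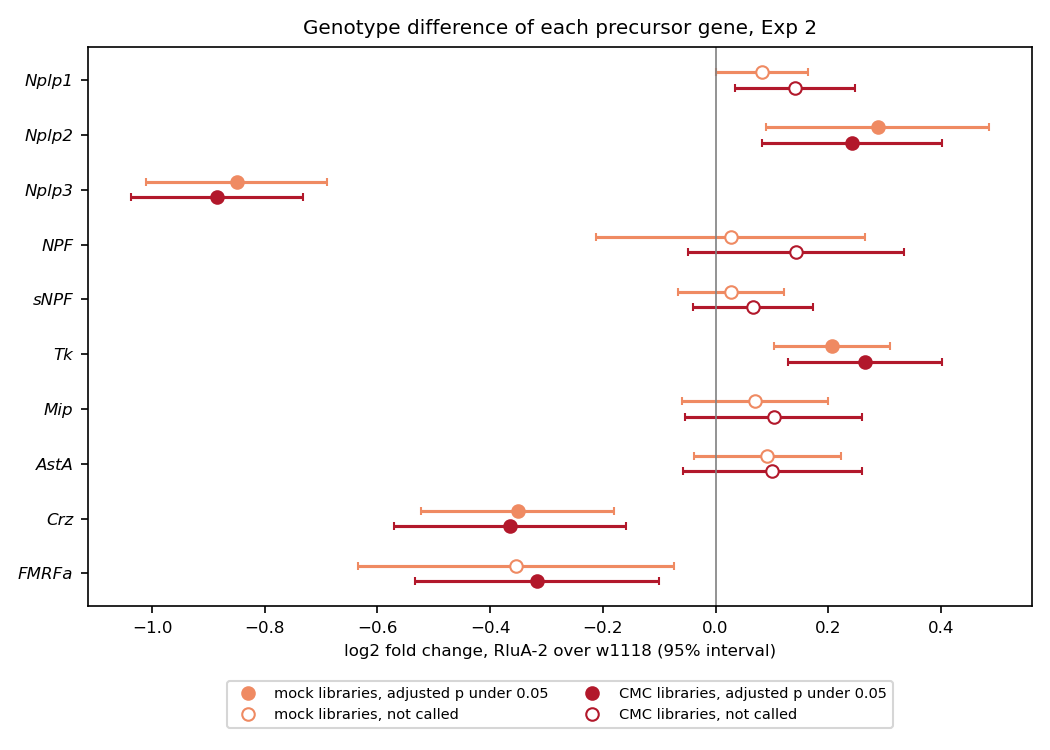
Log2 fold change of each precursor gene, RluA-2 over w1118 in Exp 2 (x axis), in mock and CMC libraries (4 against 4 each), with 95% intervals from the edgeR fit. Filled points passed an adjusted p of 0.05; Nplp3 is alone near -0.85, and the other 9 genes lie between -0.37 and 0.29.

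Whether the genotype difference itself changed with CMC was tested in 1 model over the 16 libraries of Exp 2. No precursor passed that test, and 0 of 10344 genes did (0% called). None of the 10 precursors was under an unadjusted p of 0.05, and DESeq2 called 0 genes too. For Nplp3 the difference between the CMC and the mock fold change was -0.02 ± 0.05 on the log2 scale (SE, 95% interval -0.14 to 0.09).

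Gene counts of the CMC library were then set against those of the mock library in the 7 w1118 pairs, which asks how far the chemistry itself moves a precursor's count. AstA and Crz were higher in the CMC library and Nplp1 was lower, 3 of 10 precursors against 35.9% of 10043 genes. Nplp1 was lower in the CMC library in 7 of 7 w1118 pairs, with a log2 fold change of -0.14 ± 0.04 (SE, adjusted p = 0.0136). AstA was higher in the CMC library in 7 of 7 w1118 pairs, by 0.18 ± 0.05 (SE, adjusted p = 0.0140).

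The same 2 genes moved the same way in all 4 RluA-2 pairs. There AstA passed the test (0.21 ± 0.06, adjusted p = 0.0105) and Nplp1 did not (-0.06 ± 0.04, adjusted p = 0.192), beside 32.5% of 10053 genes called. AstA had 23.2, 23.5, 26.5 and 22.8 CPM in RluA-2 CMC libraries and 20.1, 20.7, 19.6 and 21.2 CPM in their mock libraries. sNPF was higher in the CMC library in all 11 pairs, but by only 0.06 ± 0.04 in w1118 (adjusted p = 0.202) and 0.11 ± 0.04 in RluA-2 (adjusted p = 0.0316).

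With each experiment fitted alone, Crz was called in Exp 1 and not in Exp 2. It had 30.4, 27.4 and 21.6 CPM in the CMC libraries of Exp 1 against 18.1, 14.7 and 19.3 CPM in the mock libraries, a log2 fold change of 0.59 ± 0.15 (SE, adjusted p = 0.0303). In Exp 2 w1118 it had 22.2, 17.8, 20.9 and 22.9 CPM in CMC libraries and 18.3, 18.9, 19.9 and 20.8 CPM in mock libraries, 0.10 ± 0.06 (SE, adjusted p = 0.219). Over the 7 pairs the value was 0.30 ± 0.11 (adjusted p = 0.0486), and the call was lost when any one pair but Exp 2 replicate 2 was left out (0.0505 to 0.135).

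FMRFa was likewise called in Exp 1 and not in Exp 2, with 12.8, 11.8 and 11.9 CPM in CMC libraries of Exp 1 and 8.85, 8.90 and 9.72 CPM in mock libraries. Its log2 fold change was 0.40 ± 0.10 in Exp 1 (SE, adjusted p = 0.0354) and 0.01 ± 0.08 in Exp 2 (adjusted p = 0.927). The difference between the experiments, Exp 2 minus Exp 1, was -0.52 ± 0.16 for Crz (adjusted p = 0.0669) and -0.40 ± 0.11 for FMRFa (adjusted p = 0.0503), so neither difference passed the test, which called 9.14% of 10410 genes. Within the single experiments the test called 31.7% of 10100 genes in Exp 2 and 25.0% of 10018 genes in Exp 1. Tk was called lower in the CMC library in Exp 2 alone (-0.13 ± 0.04, adjusted p = 0.0262), with 0.06 ± 0.09 in Exp 1 (adjusted p = 0.672) and a difference that did not pass (adjusted p = 0.147).

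**Figure D3:**
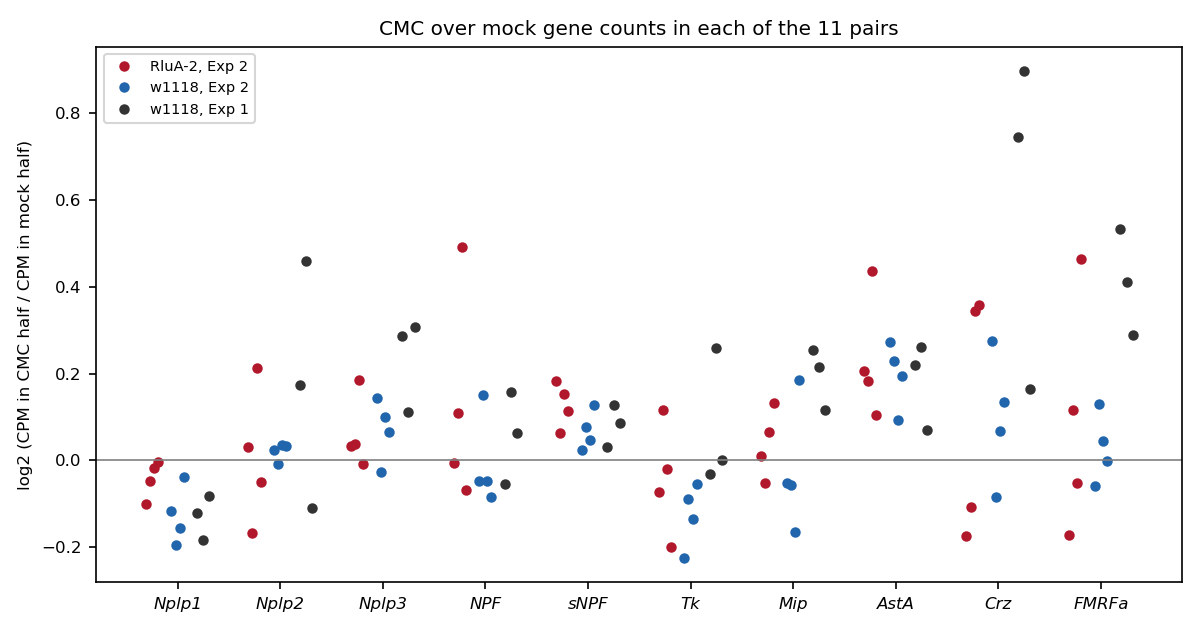
Log2 ratio of CPM in the CMC library over the mock library (y axis) for each precursor gene (x axis) in each of the 11 pairs: 4 RluA-2 and 4 w1118 pairs of Exp 2 and 3 w1118 pairs of Exp 1. All 11 AstA points lie above 0 and all 11 Nplp1 points below it, and the 3 FMRFa points of Exp 1 lie above the w1118 points of Exp 2.

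Both experiments held w1118 heads, so their mock libraries show how far a precursor's level differed between experiments within 1 genotype. These w1118 mock libraries of Exp 2 are the same as in the genotype comparison. sNPF, Nplp1 and AstA were lower in Exp 2, and no precursor was higher, 3 of 10 against 32.8% of 10253 genes (15.4% lower). sNPF had 87.5, 86.0, 82.6 and 84.8 CPM in Exp 2 mock libraries, against 107, 107 and 108 CPM in Exp 1 mock libraries. Its log2 fold change was -0.37 ± 0.05 (SE, adjusted p = 0.000534), larger than the spread within either experiment.

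Nplp1 (-0.23 ± 0.05, adjusted p = 0.00522) and AstA (-0.29 ± 0.07, adjusted p = 0.00875) followed. These 3 genes were also those whose groups did not overlap, where 40.6% of all genes did not. None of the 3 was called between the genotypes in the mock libraries. In turn Nplp3 (0.06 ± 0.10, adjusted p = 0.692), Crz (0.12 ± 0.10, adjusted p = 0.35) and Tk (0.07 ± 0.07, adjusted p = 0.492) did not pass between the experiments. What else differed between the experiments cannot be told apart from them.

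The termination tables list, for every base with at least 1 read ending in the CMC library, the number of reads that ended there and the reads that covered it. Their purpose is to find bases where CMC stops the reverse transcriptase more often than the mock treatment does. Within each pair the share of reads ending at a base was compared between the CMC and the mock library by a one-sided test of the 2 proportions. Its variance was p(1 - p) over the CMC coverage plus the inverse of the mock coverage, p being the pooled share, which is larger than the usual pooled variance and so calls fewer positions. Only positions with a higher share in the CMC library entered that test and its adjustment, which lowers the adjusted p-values. Positions were kept where that test reached an adjusted p of 0.05 in any w1118 pair of Exp 2 and again of Exp 1. Only the reference's gene spans were at hand and no genome, so the base at a position was not read, and a kept position need not be a uridine.

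Of 2841 kept positions, 21 lay in Nplp2 and 17 in Nplp3. The other 8 precursors had none. These counts depend on the variance: with the usual pooled one, 238 positions were kept in Nplp2 and 265 in Nplp3. Coverage differed widely: up to 24778 reads covered a base of Nplp2 in a CMC library and up to 14610 a base of Nplp3, while the highest value among the other 8 was 199, in Nplp1. The rule asked for a listed number of 5 or more at a base, which is 1 above the number of ends. No base of those 8 genes was called in any w1118 pair at that coverage. With the pooled variance positions were kept in 7 of the 8, from 1 in NPF, Mip and AstA to 27 in sNPF, and none in FMRFa.

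The Nplp2 position 262 bases into the span (chr3L:13356637) was called in all 4 RluA-2 pairs, all 4 w1118 pairs of Exp 2 and all 3 of Exp 1. There 4.33% to 5.49% of covering reads ended in RluA-2 CMC libraries and a mean of 1.01% in their mock libraries. In w1118 of Exp 2 the shares were 4.11% to 5.05% in CMC libraries and a mean of 0.972% in mock libraries. The log2 ratio of the CMC to the mock share, the termination fold change, was 2.27 ± 0.13 in RluA-2 and 2.30 ± 0.09 in w1118 (SD, n = 4 each), a difference within the spread.

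The Nplp3 position 317 bases into the span (chr3L:16318340) was called in 3 RluA-2 pairs and 4 w1118 pairs of Exp 2. Its termination fold change was 1.67 ± 0.19 in RluA-2 and 1.64 ± 0.14 in w1118 (SD, n = 4 each). Reads that covered it in the mock libraries had a median of 8722.5 in RluA-2 and 16645 in w1118.

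Of the 17 Nplp3 positions, 10 were called in no RluA-2 pair, and 8 of the 21 Nplp2 positions, against 17.2% of all kept positions. Few were called throughout w1118 of Exp 2 either. All 4 of its pairs were called at 2 Nplp3 and 2 Nplp2 positions, and all 4 RluA-2 pairs at 0 and 5. Among those 8 Nplp2 positions, the ones 160, 161, 167 and 183 bases into the span were called in only 1 w1118 pair of Exp 2. At 161 a mean of 98.3% of reads ended in RluA-2 CMC libraries and 98.4% in w1118 CMC libraries of Exp 2. Positions were kept on calls in w1118, so a lower number of calls in RluA-2 is favoured by the choice. The sizes were close: the median termination fold change was 1.60 in RluA-2 and 1.69 in w1118 of Exp 2 at the Nplp3 positions, and 1.57 in both genotypes at the Nplp2 positions. The median mock coverage of the kept Nplp3 positions was 8926.5 reads in RluA-2 and 17115.5 reads in w1118, and that of Nplp2 was 17575.5 reads in RluA-2 and 16541 reads in w1118. The error of that test shrinks with coverage, and the part of coverage in these counts was not tested.

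In a limma fit over all 2841 kept positions, 0 of the 38 precursor positions differed between RluA-2 and w1118 at an adjusted p of 0.05, and 8 positions did in all (0.282%). The median difference of the termination fold change was 0.01 at the 21 Nplp2 positions and -0.06 at the 17 Nplp3 positions, against 0.05 over all positions. At an unadjusted p under 0.05 1 precursor position differed, chr3L:16318527, 504 bases into Nplp3. Its termination fold change was 1.14 ± 0.26 in RluA-2 and 1.86 ± 0.17 in w1118 (SD, n = 4 each), a difference of -0.72 ± 0.15 (SE, limma adjusted p = 0.252).

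There 3.59% to 5.84% of reads ended in RluA-2 CMC libraries, against 14.3% to 23.4% in w1118 CMC libraries of Exp 2. In the mock libraries the shares were 1.96% to 2.30% in RluA-2 and 4.28% to 6.51% in w1118. The shares of the genotypes did not overlap in CMC libraries nor in mock libraries.

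**Figure D4:**
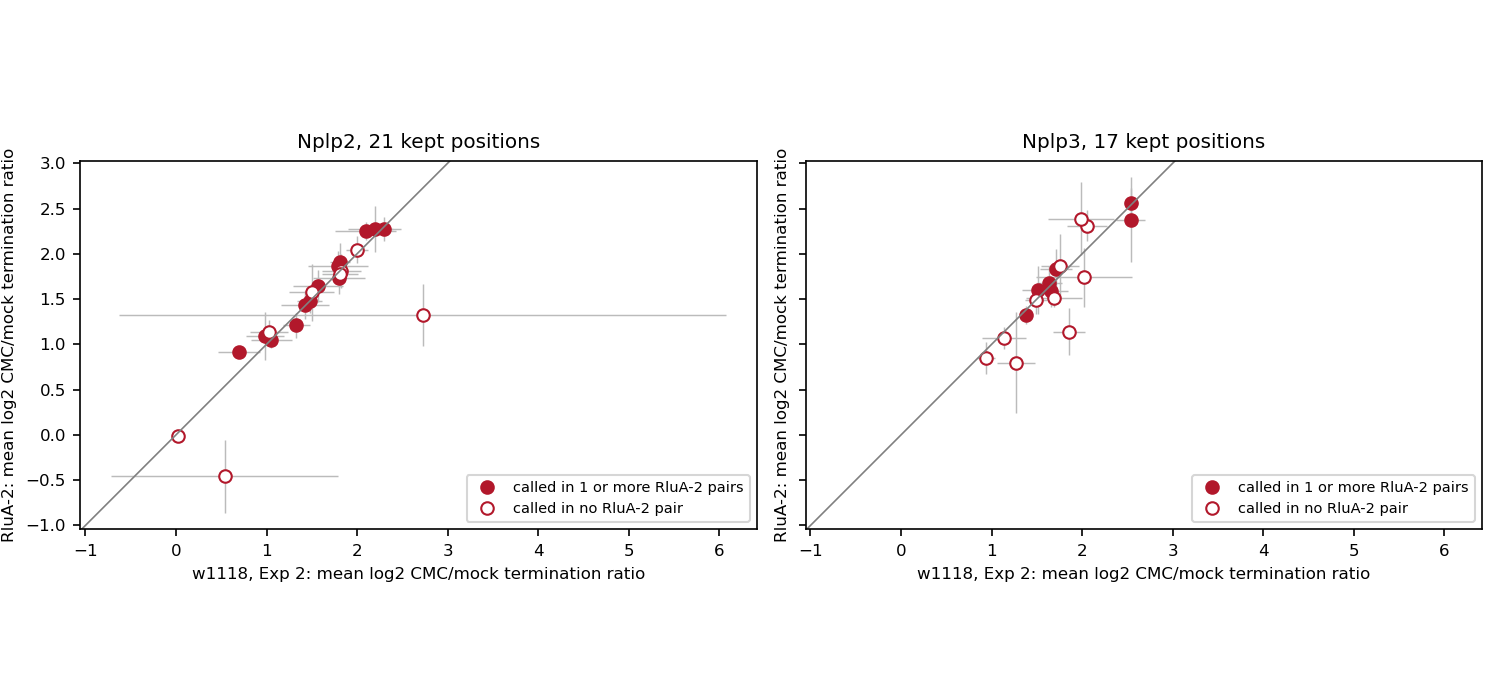
Mean log2 ratio of the CMC to the mock termination share at the kept positions of Nplp2 (21) and Nplp3 (17), RluA-2 (y axis) against w1118 of Exp 2 (x axis), 4 pairs each; bars are SD and the line marks equal values. Open points were called in no RluA-2 pair. The Nplp3 point at 1.86 and 1.14 is the position 504 bases into the gene. The widest bars are those of w1118 at the Nplp2 positions 183 and 160 bases into the span, where replicate 1 stood apart. It had 7.73 at 183, against 0.68, 1.36 and 1.13 in replicates 2, 3 and 4. At 160 it had 2.41, against 0.07, -0.24 and -0.08.

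That position lies beside a stretch of Nplp3 where the libraries differed in another way. Over 19 consecutive bases, chr3L:16318502-16318520, no read ended in any of the 4 w1118 CMC libraries of Exp 2. The bounds were set as the longest run without an end in those libraries and with ends at every base in all other CMC libraries. That contrast is therefore fixed by the choice of bases. In the same bases 659, 774, 662 and 820 reads ended in the RluA-2 CMC libraries, and 669, 553 and 467 in the w1118 CMC libraries of Exp 1. The w1118 libraries of Exp 2 had 47669 to 59181 ends in the rest of the gene, more than the 35164 to 38293 ends of the RluA-2 libraries over the whole gene.

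The 20-base bin that meets the start of the stretch held 3.63% to 4.93% of the gene's ends in RluA-2, 0.0882% to 0.186% in w1118 of Exp 2 and 2.82% to 3.62% in w1118 of Exp 1. Coverage differed across the stretch too. From 472 to 498 bases into the gene it kept 86.0% to 92.3% of its value in RluA-2 CMC libraries, 31.8% to 43.7% in w1118 CMC libraries of Exp 2 and 51.1% to 66.7% in those of Exp 1. In the mock libraries it kept 87.1% to 93.2% in RluA-2, 49.9% to 56.0% in w1118 of Exp 2 and 59.7% to 74.1% in w1118 of Exp 1. In coverage the RluA-2 libraries stood above both w1118 sets, while in ends the w1118 libraries of Exp 2 stood apart from both other sets.

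Counting every position of Nplp3 with at least 5 ends in each of the 4 RluA-2 CMC libraries, 25 of 461 had no end in any w1118 CMC library of Exp 2, and 0 of 351 such positions in Nplp2. Of 788 genes with 50 or more such positions, 11 had 10 or more without an end in w1118 (1.40%). With the genotypes exchanged it was 6 of 718 genes (0.836%), and Nplp3 had 0 of 393 positions. The comparison was made after the stretch had been seen. The cause of the stretch was not tested.

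The size of the Nplp3 difference depended on which reads were counted. Ends within the gene numbered 0.801 to 0.810 per gene count in RluA-2 CMC libraries, 0.670 to 0.686 in w1118 of Exp 2 and 0.632 to 0.662 in w1118 of Exp 1. For Nplp2 they numbered 0.873 to 0.880 in RluA-2 and 0.891 to 0.901 in w1118 of Exp 2. With ends in place of gene counts, the log2 fold change of Nplp3 was -0.63 ± 0.07 (SE, adjusted p = 9.56e-06), against -0.88 by gene counts in the same libraries. Nplp2 stayed higher in RluA-2 by that measure (0.23 ± 0.07, adjusted p = 0.0433), and Crz (-0.18 ± 0.10, adjusted p = 0.256) and FMRFa (-0.33 ± 0.12, adjusted p = 0.0775) did not pass.

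**Figure D5:**
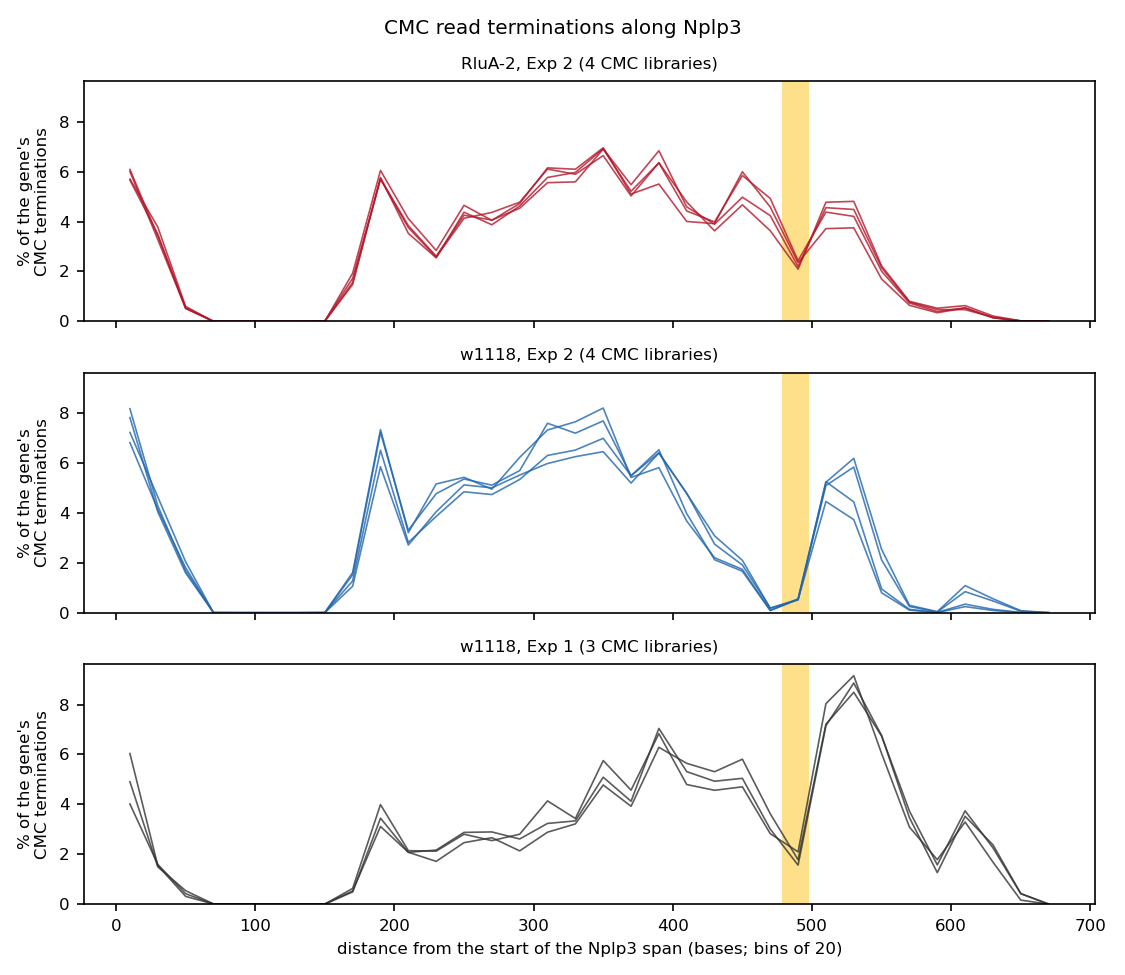
Share of a library's Nplp3 CMC terminations (y axis, percent) in bins of 20 bases along the gene (x axis, bases from its start), 1 line a library, for RluA-2 and w1118 of Exp 2 (4 each) and w1118 of Exp 1 (3). The shaded 19 bases hold no termination in w1118 of Exp 2; the bin there also takes in bases beside them, so the w1118 lines of Exp 2 stand at 0.52% to 0.56% and the RluA-2 lines at 2.09% to 2.43%.

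Genes of peptide signalling other than the 10 precursors could be named only in the termination tables, through the reference's gene spans, and were tested on the number of reads that ended in each span of the CMC libraries. In that fit 20.4% of 9494 spans were called (9.20% higher and 11.2% lower), and the median log2 fold change was 0.01. Of 31 further precursor genes 27 could be measured and 22 tested: 6 were lower in RluA-2, 1 was higher and 15 did not pass, with a median of -0.05.

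Eh, which encodes eclosion hormone, a trigger of moulting behaviour, had 3.65 ± 0.51 termination CPM in RluA-2 against 11.6 ± 1.06 in w1118 (SD, n = 4 each), a log2 fold change of -1.65 ± 0.12 (SE, adjusted p = 8.16e-08). The w1118 libraries of Exp 1 had 5.60 to 7.57, below those of Exp 2 and above all RluA-2 libraries, which had at most 4.00. Dh31, a diuretic hormone that also acts in sleep, was lower (-0.42 ± 0.06, adjusted p = 0.000191), and so was SIFa, a peptide of a few large brain neurons (-0.42 ± 0.09, adjusted p = 0.00243). For both genes w1118 of Exp 1 was also above every RluA-2 library: Dh31 had at most 28.6 termination CPM in RluA-2 and at least 45.0 in w1118 of Exp 1, and SIFa at most 15.7 in RluA-2 and at least 26.5 in w1118 of Exp 1. Ptth, which drives ecdysone synthesis in the larva, was called higher at 0.981 ± 0.127 against 0.472 ± 0.0297 termination CPM, from 14 to 20 reads in RluA-2 and 6 to 9 in w1118, and w1118 of Exp 1 spanned both at 0.325 to 1.30. Pdf, the peptide of the clock neurons, did not pass (0.17 ± 0.07, adjusted p = 0.0894).

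Of 10 receptor genes for these peptides 9 were tested, 3 were higher and 1 was lower in RluA-2, with a median of -0.06. The tachykinin receptor TkR99D (0.25 ± 0.07, adjusted p = 0.0257) and its relative TkR86C (0.43 ± 0.11, adjusted p = 0.0116) were higher than in w1118 of Exp 2, as was Tk by gene counts. Their ranges overlapped those of w1118 in Exp 1: TkR99D had 15.7 to 17.6 termination CPM in RluA-2 and 15.0 to 17.2 in w1118 of Exp 1, and TkR86C had 8.18 to 9.32 in RluA-2 and 6.92 to 8.36 in w1118 of Exp 1. FMRFaR, the FMRFamide receptor, was higher (0.46 ± 0.13, adjusted p = 0.0173), where the precursor FMRFa was lower by gene counts in the same libraries. The FMRFaR range of 5.90 to 8.54 in RluA-2 overlapped that of 4.26 to 6.73 in w1118 of Exp 1. SPR, the receptor for the Mip peptides, was lower (-0.32 ± 0.07, adjusted p = 0.00506), and Mip itself was not called. SPR had 30.7 to 38.0 termination CPM in RluA-2, 41.5 to 46.9 in w1118 of Exp 2 and 28.8 to 43.1 in w1118 of Exp 1, so the RluA-2 range was clear of Exp 2 and lay within that of Exp 1. CrzR (adjusted p = 0.56), NPFR (0.59), sNPF-R (0.544), AstA-R1 (0.571) and AstA-R2 (0.0596) did not pass.

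Of 15 genes for peptide processing and vesicles 10 could be measured, 1 was called higher and none lower, with a median of 0.05. The 1 was Syt7, a calcium sensor of vesicle release, at 110 ± 11.8 termination CPM in RluA-2 against 45.5 ± 7.75 in w1118 (SD, n = 4 each), a log2 fold change of 1.29 ± 0.10 (SE, adjusted p = 3.66e-07). In w1118 of Exp 1 it had 76.0 ± 11.8 (SD, n = 3), above w1118 of Exp 2 and, at 68.7 to 89.6, below every RluA-2 library, the lowest of which had 92.3. The convertase partner 7B2, the carboxypeptidase gene svr, the amidation lyases Pal1 and Pal2, Fur1, dimm, Cadps, Rab2 and Sytbeta did not pass, with log2 fold changes from -0.18 to 0.13.

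Marker genes of the cell types in a head were tested the same way, and w1118 values are those of Exp 2 unless Exp 1 is named. Not every listed marker could be measured: 4 of 5 neuron, 3 of 5 fat body, 3 of 4 muscle and 2 of 5 ovary genes could. None of 4 neuron genes and none of 4 photoreceptor genes was called. The muscle genes Act88F (adjusted p = 0.417) and Mhc (adjusted p = 0.921) were not called, and TpnC4 was not tested. Of 3 glial genes repo was higher (0.17 ± 0.06, adjusted p = 0.0411), and the 3 together had 1088 to 1139 termination CPM in RluA-2 and 1082 to 1184 in w1118. Of 3 fat body genes Fbp1 was lower (-2.43 ± 0.40, adjusted p = 0.0004), from only 8 to 66 ends in RluA-2 and 109 to 202 in w1118. Yp2 (0.18 ± 0.08, adjusted p = 0.138) and Yp3 (0.18 ± 0.09, adjusted p = 0.210) were not called. The 3 together, nearly all of it Yp2 and Yp3, had 38501 to 47659 termination CPM in RluA-2 and 35556 to 39736 in w1118. The part of these shifts in the precursors' values was not tested. Akh, made in the corpora cardiaca behind the brain, had at most 0.484 termination CPM in RluA-2. The highest w1118 values were 0.396 in Exp 2 and 0.565 in Exp 1.

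The genes most like each precursor were ranked by Pearson's r of log2 termination CPM over the 11 CMC libraries, which fall into 3 groups by genotype and experiment. For Nplp3 the nearest was PCNA (r = 0.99), for sNPF Sap30 (r = 0.97), for Nplp1 Eps-15 (r = 0.96) and for Nplp2 CG5327 (r = 0.97). Another precursor stood among the nearest 3 in a pair of cases, SIFa for FMRFa (r = 0.95) and Mip for NPF (r = 0.94).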

How the data were processed

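The authors trimmed reads with Trimmomatic 0.33, set aside rRNA and spike-in reads with Bowtie2, mapped the rest with STAR 2.6.1a to FlyBase release FB2017_04, and counted concordant, uniquely mapped pairs per gene on the sense strand with featureCounts 2.0.0. The deposited counts are raw. The deposited termination tables give, per position, counts of ending and covering inserts and their ratio as a fraction; ends and coverage were read as the listed value minus 1. Positions appear there only where the CMC library has an end.

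Gene counts were tested with edgeR 4.0.16 (TMM, filterByExpr, quasi-likelihood test, Benjamini-Hochberg over all genes). RluA-2 and w1118 were compared with genotype alone as a term; CMC and mock libraries were blocked by pair, since each pair shares its RNA. Positions were called per pair by a proportion test whose mock variance term was the inverse of coverage, with the pooled variance as an alternative. That test took the listed values without the 1 taken off, and only positions with a higher share in the CMC library. Termination fold changes were tested with limma 3.58.1 after 0.5 was added to ends and 1 to coverage. Calls used an adjusted p of 0.05, and intervals are 95%. DESeq2 1.42.0, other scaling, no filter, and leaving out libraries were alternatives. The main edgeR comparisons, the difference between experiments in CMC over mock, the proportion test and the limma fit were tried on simulated data. No minimum recovery was asked of the interaction test there. The simulated rise for the proportion test was larger than that at the Nplp2 position called in all pairs. The fit of ends in gene spans, the fits within single experiments and DESeq2 were not tried on simulated data.

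The files do not pair gene identifiers with the symbols of genes other than the 10 precursors, so pathway and marker genes were measured as CMC ends within RefSeq gene spans (Release 6). Spans with less than 0.8 of their length to themselves, or over 20% of ends on the other strand, were left out, Tk among them. At most 4 called genes a list were named, by adjusted p, and others beside them were chosen after their values were seen. The members and lists were chosen with earlier results of these data known.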

Additional observations from a re-analysis of the deposited data

How the results depend on the processing

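Of 599 values of single precursors computed under an alternative, 561 kept their side of the threshold, 31 lost a call and 7 gained one. Among values called in the main fit or the alternative, 0 changed direction. Direction was not compared where neither was called, and there it could change. The log2 fold change of NPF in mock libraries, 0.03 in the main fit, ran from -0.09 to 0.10. Leaving out 1 library or pair at a time, the called precursors numbered 3 to 4 between genotypes in mock libraries (2021 to 2254 genes in all), 3 to 5 in CMC libraries (1737 to 2016), 2 to 3 for CMC over mock (2325, without Exp 1 replicate 1, to 3369), 0 for the interaction (0 to 9 genes in all) and 3 between experiments (2435 to 3928). The kept positions on precursors numbered 27 to 38, and the median difference of their termination fold change ran from -0.05 to 0.05. In 3 of these runs the CMC count of precursors was 3, without w1118 replicate 3, RluA-2 replicate 2 or RluA-2 replicate 4. Without the filter on low counts the interaction called 39 genes, none a precursor. With the pooled variance in the test of proportions 552 positions on precursors were kept, since its denominator is smaller by construction; Nplp2 then had 238 and Nplp3 265, and FMRFa alone had none.

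Same-numbered RluA-2 and w1118 libraries deviated together with r from -0.01 to 0.27, and differently numbered ones with r of at most 0.15. Number 1 stood above its differently numbered libraries in both treatments, at 0.23 in mock and 0.27 in CMC libraries. The other numbers did not. In the main fits the number was taken as a name only. With the replicate block 4 precursors and 2319 genes were called in mock libraries, and 4 precursors and 2114 genes in CMC libraries, where FMRFa lost its call (adjusted p = 0.050). At the kept positions the block left 0 precursor positions called, 1 position in all against 8 without it, and a median difference on precursors of -0.00. Without the pair as a block, CMC over mock called 3 precursors and 3226 genes, and the interaction 0 and 0. Measuring ends in gene spans, and CMC over mock within each experiment, were alternatives chosen after the data were seen; 3 precursors were called in Exp 2 alone and 2 in Exp 1 alone. Coverage reached at most 199 reads at a base of the 8 precursors without a kept position, and its part in that was not tested.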
